A study of Homo sapiens with 4 samples.

Results

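The 8 mature miRNAs described here are known from glia and from choroid plexus or pigment epithelium. They were chosen by name, as hsa-miR-219a-5p, hsa-miR-219a-1-3p, hsa-miR-219a-2-3p, hsa-miR-338-3p, hsa-miR-338-5p, hsa-miR-204-5p, hsa-miR-204-3p and hsa-miR-211-5p, (the prefix for human is left out below), out of 2656 human mature miRNAs in a table of small RNA-seq counts. The cells were cultures of cortical interneurons, inhibitory nerve cells, differentiated from H1, an established human embryonic stem cell (hESC) line. By the study's account such cultures held mainly these interneurons and also a few glial cells. Cultures were either kept for 7 days in maturation medium with ethanol at about 50 to 100 mM (exposed, 2 libraries) or for 7 days in the medium alone (unexposed, 2 libraries), and the exposed cells then had a day without ethanol. All 4 libraries come from 1 cell line, the ethanol level is stated only as a range, and the study describes duplicate treatments without saying whether these were separate differentiations. P values therefore measure the spread between these libraries, which may in part be technical.

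The miRNA gene MIR219A1 and its copy MIR219A2 give the same 5p strand and different 3p strands, and together with MIR338 they are the miRNAs best known from oligodendrocytes, the myelin-forming glia. miR-219 and miR-338 rise as oligodendrocyte precursors leave the cell cycle and hold down mRNAs that keep the precursor state. MIR204 and MIR211 are copies of one ancestral gene inside introns of the ion channel genes TRPM3 and TRPM1, and are known from epithelia that border the nervous system, such as choroid plexus and retinal pigment epithelium, and, for miR-211, from melanocytes. A hairpin precursor is cut into a duplex of a 5p and a 3p strand, of which one is usually kept and the other mostly lost. Bases 2 to 8 of the kept strand, the seed, direct it to its target mRNAs.

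The mature sequences are shown because the counts separate strands of one hairpin and near-identical copies. They are the RefSeq sequences, found for all 8 miRNAs, written 5′ to 3′ with the seed in capitals.
miR-219a-5p: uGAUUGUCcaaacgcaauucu
miR-219a-1-3p: aGAGUUGAgucuggacgucccg
miR-219a-2-3p: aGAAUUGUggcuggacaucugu
miR-338-5p: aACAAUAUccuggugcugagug
miR-338-3p: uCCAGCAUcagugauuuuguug
miR-204-5p: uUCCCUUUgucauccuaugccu
miR-204-3p: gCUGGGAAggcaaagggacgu
miR-211-5p: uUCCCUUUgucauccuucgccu
The 8 miRNAs carry 7 seeds. Only miR-204-5p and miR-211-5p share one (UCCCUUU), and counted from 1 at the 5′ end they differ by A17U and U18C, with 20 of 22 bases identical. The 3p strands of the miR-219a hairpins are identical at 15 of 22 positions and have different seeds. Among the 2367 miRNAs of the table with a RefSeq sequence, only miR-4782-3p (0 or 1 count per library) and miR-6766-3p (1 to 4 counts per library) share the seed of miR-219a-5p, and no further miRNA shares a seed with the other members.

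The hairpins of MIR219A1, MIR219A2 and MIR338 are shown because their strands were counted so unequally. The capitals mark the 5p strand and, after the loop, the 3p strand.
MIR219A1, chr6:33207835-33207944, plus strand, GRCh38: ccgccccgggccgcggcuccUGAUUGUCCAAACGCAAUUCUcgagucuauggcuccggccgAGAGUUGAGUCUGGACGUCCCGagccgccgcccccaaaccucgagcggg
MIR219A2, chr9:128392618-128392714, minus strand, GRCh38: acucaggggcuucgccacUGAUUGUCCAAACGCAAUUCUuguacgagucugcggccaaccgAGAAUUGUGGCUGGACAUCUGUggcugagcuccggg
MIR338, chr17:81125883-81125949, minus strand, GRCh38: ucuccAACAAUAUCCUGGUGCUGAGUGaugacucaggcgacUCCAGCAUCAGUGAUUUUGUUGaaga
In GENCODE 29, MIR338 lies in an intron of AATK, MIR204 (chromosome 9, 70809975 to 70810084) in an intron of TRPM3 and MIR211 (chromosome 15, 31065032 to 31065141) in an intron of TRPM1, each on the strand of its host gene. MIR219A2 overlaps an exon of the long noncoding RNA gene AL359091.1, and no other gene overlaps MIR219A1. On the opposite strands, MIR219B overlaps MIR219A2 and MIR3065 overlaps MIR338.

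The counts summed to between 12100425 and 24858230 per library, and each exposed library was deeper than each unexposed one, so depth and exposure cannot be told apart. The 8 miRNAs together took 0.144% and 0.145% of all counts under exposure and 0.106% and 0.166% without it. Levels are given below as CPM, counts scaled to a library of 1000000, after TMM scaling, which corrects for library composition. A small RNA read spans the whole mature miRNA, so CPM needs no correction for length. In these bulk cultures, fewer cells of a type and less of a miRNA per cell cannot be told apart.

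miR-204-5p, the guide strand of MIR204, was the most abundant of the 8. Exposed cells gave 19844 and 23850 counts of it and unexposed cells 10244 and 12204, or 787 and 980 CPM against 868 and 949 CPM. The exposed libraries were the lowest and the highest of the 4, so the groups overlapped. By its mean level miR-204-5p ranked 76 among the 2656 miRNAs, in the top 2.86% of the table. Of these 2656, 1825 had at least 1 count in any library.

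miR-338-5p, the strand of MIR338 usually described as the passenger, came next, on 5365 and 5163 counts under exposure and 2106 and 2453 counts without it. Its level was 213 and 212 CPM in exposed and 179 and 191 CPM in unexposed cells. Both exposed libraries were above both unexposed ones, by a small margin.

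miR-219a-1-3p, from the MIR219A1 hairpin, was counted 4178 and 4338 times in exposed cells, and 1395 and 3659 times in unexposed cells. Its level was 166 and 178 CPM in exposed cells, between the 118 and 284 CPM of the unexposed cells. miR-219a-2-3p, the 3p strand of the other copy, lay at 71.8 and 92.0 CPM in exposed and at 73.6 and 113 CPM in unexposed cells, on 868 to 2240 counts per library. For both 3p strands the highest library was unexposed replicate 2.

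The other members were far lower. miR-204-3p, the passenger strand of MIR204, was at 14.4 and 9.61 CPM in exposed and at 5.0 and 12.3 CPM in unexposed cells (362, 234, 59 and 158 counts). miR-211-5p, the guide strand of MIR211, was at 10.6 and 8.46 CPM in exposed and at 7.21 and 8.70 CPM in unexposed cells (268, 206, 85 and 112 counts). For miR-204-3p and miR-211-5p, unexposed replicate 1 was the lowest and exposed replicate 1 the highest library, and the groups overlapped.

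miR-338-3p, the strand of MIR338 best known from oligodendrocytes, was counted only 89 and 76 times in exposed cells and 26 and 30 times in unexposed cells. These counts give 3.53 and 3.12 CPM in exposed and 2.20 and 2.33 CPM in unexposed cells, without overlap. miR-219a-5p, the strand common to both miR-219a hairpins, was counted 8 and 17 times in exposed cells and 3 and 6 times in unexposed cells. Its 95% Wilson intervals for unscaled CPM ran from 0.182 to 0.710 and from 0.427 to 1.10 under exposure, against 0.0732 to 0.633 and 0.227 to 1.08 without it, and cover counting error only. All of these intervals overlapped. With 2 libraries per group, such overlap is not a test of a difference between the groups.

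**Figure D1:**
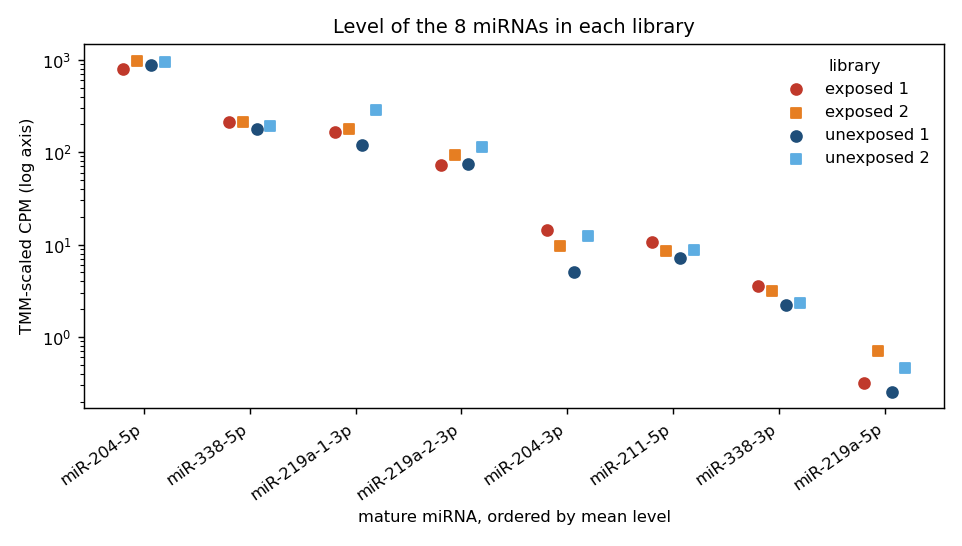
TMM-scaled CPM of each of the 8 miRNAs (log axis) in each of the 4 libraries, ordered by mean level, with 1 point per library. miR-204-5p lies between 787 and 980 CPM and miR-219a-5p under 1 CPM in every library, and unexposed replicate 2 stands above the other libraries for both miR-219a 3p strands.

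In order of mean level, miR-204-5p (896 CPM) was followed by miR-338-5p (199 CPM), miR-219a-1-3p (187 CPM), miR-219a-2-3p (87.6 CPM), miR-204-3p (10.3 CPM), miR-211-5p (8.75 CPM), miR-338-3p (2.80 CPM) and miR-219a-5p (0.434 CPM). The ranges over the 4 libraries overlapped for miR-338-5p and miR-219a-1-3p and for miR-204-3p and miR-211-5p, so these neighbours were not separated. The ranges of all other neighbours were apart.

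The strands best known from oligodendrocytes were thus the rarest of the 8. miR-219a-5p made up 0.133% and 0.258% of all miR-219a counts under exposure against 0.132% and 0.117% without it, and over the 4 libraries the 3p strands were counted 586 times as often. miR-338-3p took 1.63% and 1.45% of the counts of both MIR338 strands under exposure against 1.22% and 1.21% without it, and miR-338-5p was counted between 60.3 and 81.8 times as often. miR-204, known for its 5p strand, had 0.573% to 1.79% of its counts on the 3p strand. miR-211-3p, the passenger strand of MIR211, had 3 and 2 counts under exposure and 0 and 1 without it.

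So unequal a use of the arms was not unusual in these libraries. How often the better known strand of a hairpin was the rarer one was not examined. Over 205 hairpins with both strands in the table and at least 1000 counts in all, the rarer strand had a median share of 1.31% (quartiles 0.209% and 9.91%), and the 5p strand was the more abundant in 53.7%. The rarer strand had 1.44% for MIR338, 1.21% for MIR204, 0.531% for MIR219A2 and 0.250% for MIR219A1, with all miR-219a-5p counts set against each of the last pair. miR-219a-5p is encoded at 2 places of the genome, and how the authors assigned reads that match several places is not described. Whether this bears on the low miR-219a-5p count was not tested. The most abundant miRNAs of the table were miR-9-5p, with 3 loci, and miR-7-5p, with 2 loci. The 139 miRNAs with several loci in RefSeq took 56.1% to 63.4% of the counts. These totals do not show how the reads of such miRNAs were assigned.

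**Figure D2:**
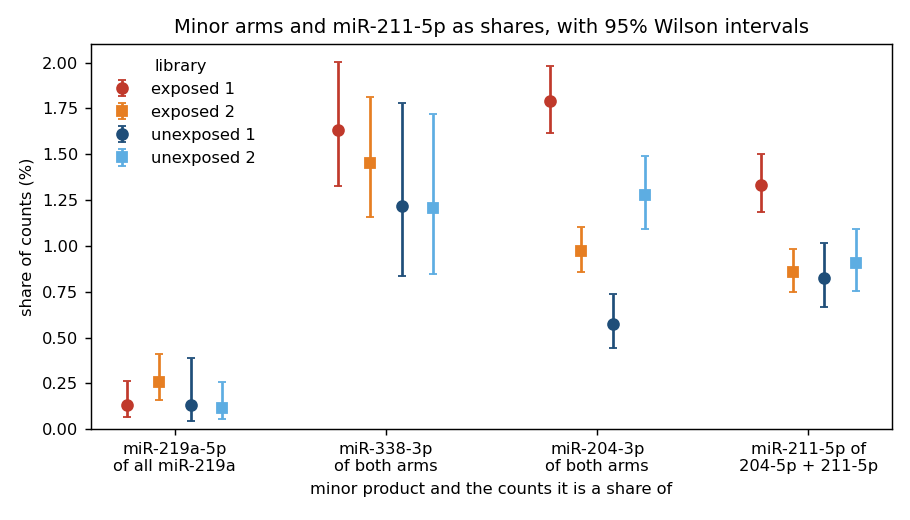
Share of counts (%) of miR-219a-5p among all miR-219a counts, of miR-338-3p and miR-204-3p among both strands of their hairpins, and of miR-211-5p among miR-204-5p and miR-211-5p, with 1 point per library and 95% Wilson intervals for counting error. Every share is under 2%, and for miR-204-3p the libraries spread from 0.573% to 1.79%, with the lowest in unexposed replicate 1 and the highest in exposed replicate 1.

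The balance between gene copies was compared in the same way. miR-219a-1-3p made up 69.8% and 65.9% of the counts of both 3p strands under exposure against 61.6% and 71.6% without it, so that the unexposed cultures enclosed the exposed ones. miR-211-5p was 1.33% and 0.856% of the counts of miR-204-5p and miR-211-5p under exposure against 0.823% and 0.909% without it, with exposed replicate 1 apart from the others. Since these miRNAs differ at 2 bases, a read with a mismatch at either or both could be assigned to the wrong copy. Whether this bears on the miR-211-5p count was not tested.

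Exposed and unexposed shares overlapped for miR-204-3p (exact permutation p = 0.667), miR-211-5p (0.667) and miR-219a-1-3p (1). They did not overlap for miR-338-3p, 1.54 ± 0.13% against 1.21 ± 0.0080% (SD, n = 2 each; two-sided exact permutation p = 0.33), nor for miR-219a-5p, 0.196 ± 0.088% against 0.125 ± 0.011% (SD, n = 2 each; exact permutation p = 0.33). For miR-211-3p, on 0 to 3 counts per library, the shares of both MIR211 strands were 1.03 ± 0.10% and 0.442 ± 0.63% without overlap (SD, n = 2 each; exact permutation p = 0.33), with counting intervals that overlapped. The miR-219a-5p difference, 0.071 percentage points, was 0.0086 without exposed replicate 2. With 2 libraries against 2, 0.33 is the smallest p that a two-sided exact permutation test can give. How often such shares did not overlap over all hairpins was not examined. The counting intervals of the exposed and unexposed shares of miR-338-3p and of miR-219a-5p overlapped.

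Whether 7 days of ethanol changed these miRNAs was tested with edgeR's quasi-likelihood test, fitted to all 863 miRNAs that passed the filter on low counts. Of the 8 members 7 passed, and miR-219a-5p did not. None of the 7 was called: 0 had an unadjusted P under 0.05, against 4.52% of all miRNAs tested, 0 were also past a fold change of 2, against 2.32%, and 0 had an adjusted p under 0.05, against 0% (0 of 863). limma-voom and DESeq2 called 0 of the 7 at an unadjusted P under 0.05 as well. Levels of the groups did not overlap for 2 of the 7, miR-338-3p and miR-338-5p, against 33.4% of all miRNAs tested, and both were higher in exposed cells, which held for 18.8% of all. The log2 fold change was above 0 for 4 of the 7, against 48.8% of all, and the median was 0.20 for the 7 and -0.010 for all miRNAs tested.

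None of the oligodendrocyte miRNAs tested passed in either direction. The strands of MIR338 were higher in exposed cells, with a log2 fold change of 0.55 for miR-338-3p (SE 0.31, 95% interval -0.16 to 1.26, adjusted p = 0.922 in edgeR) and of 0.20 for miR-338-5p (SE 0.21, interval -0.28 to 0.69, adjusted p = 0.940 in edgeR). Their levels were 3.33 ± 0.288 CPM against 2.27 ± 0.0900 CPM for miR-338-3p and 212 ± 0.455 CPM against 185 ± 8.56 CPM for miR-338-5p (SD, n = 2 each). The difference between groups was thus larger than the spread between replicates for both, but neither passed the test.

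For the miR-219a 3p strands the log2 fold changes were negative and smaller than the spread of the unexposed cultures. miR-219a-1-3p was at 172 ± 8.86 CPM in exposed and 201 ± 117 CPM in unexposed cells (SD, n = 2 each), a log2 fold change of -0.23 (SE 0.38, 95% interval -1.11 to 0.65, adjusted p = 0.970 in edgeR). The sign rested on which unexposed culture was used. Leaving out unexposed replicate 1 gave a log2 fold change of -0.73, and leaving out unexposed replicate 2 gave 0.53. These fits had a lone unexposed library, assumed to vary like the exposed ones, so only the log2 fold changes are given. miR-219a-2-3p was at 81.9 ± 14.3 CPM against 93.2 ± 27.7 CPM (SD, n = 2 each), a log2 fold change of -0.19 (SE 0.28, 95% interval -0.84 to 0.47, adjusted p = 0.968 in edgeR), which became 0.15 without unexposed replicate 2.

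Of the choroid and pigment epithelium miRNAs, miR-204-5p had the log2 fold change nearest to 0 of the 7, at 883 ± 136 CPM in exposed and 909 ± 56.6 CPM in unexposed cells (SD, n = 2 each). Its log2 fold change was -0.040 (SE 0.22, 95% interval -0.55 to 0.47, adjusted p = 0.983 in edgeR), and turned to 0.088 when libraries were scaled by size alone. A change of 2-fold in either direction lies outside this interval. miR-211-5p, at 9.55 ± 1.53 CPM against 7.96 ± 1.06 CPM (SD, n = 2 each), had a log2 fold change of 0.26 (SE 0.29, 95% interval -0.42 to 0.94, adjusted p = 0.945 in edgeR).

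miR-204-3p was at 12.0 ± 3.35 CPM in exposed and 8.64 ± 5.15 CPM in unexposed cells (SD, n = 2 each), a log2 fold change of 0.47 (SE 0.44, 95% interval -0.55 to 1.49, adjusted p = 0.937 in edgeR). As with miR-219a-1-3p, its value depended on which unexposed culture was used. Leaving out unexposed replicate 2 gave a log2 fold change of 1.25, and leaving out unexposed replicate 1 gave -0.035. Under every alternative that kept all 4 libraries, neither miR-204-3p nor miR-219a-1-3p had an unadjusted P under 0.05.

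**Figure D3:**
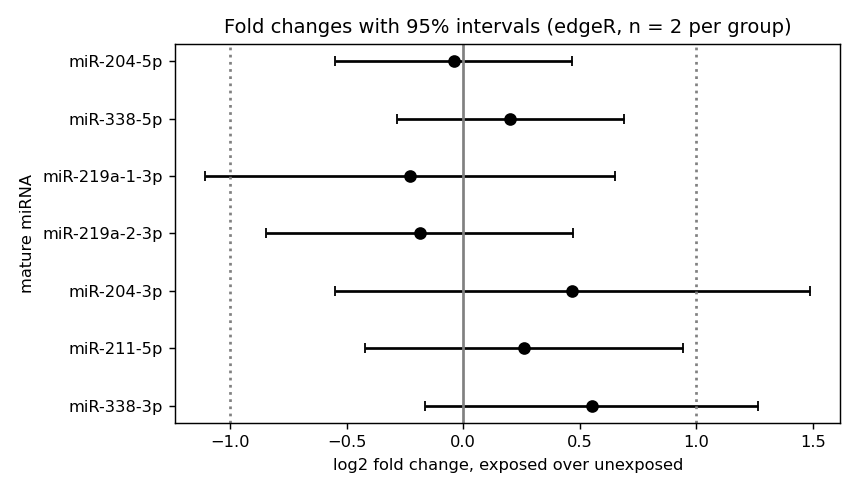
log2 fold change of exposed over unexposed cells for the 7 members tested by edgeR, with 95% intervals and dotted lines at a change of 2-fold. Every interval includes 0, and those of miR-219a-1-3p, miR-204-3p and miR-338-3p reach past 2-fold.

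The gap between the unexposed cultures was therefore the widest contrast for some members and small for others. All 7 members tested were lower in unexposed replicate 1 than in replicate 2, which held for 52.1% of all 863 miRNAs. The gap on the log2 scale was -1.29 for miR-204-3p and -1.27 for miR-219a-1-3p, which placed both in the widest 6.95% of all miRNAs tested, and -0.62 for miR-219a-2-3p. For miR-338-5p, miR-338-3p, miR-204-5p and miR-211-5p it lay between -0.27 and -0.077, below the median gap of 0.41 over all miRNAs (without sign). In the exposed cultures the 7 members were split, with 3 lower in replicate 1.

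miR-204-3p and miR-219a-1-3p were also the members tested with the most G and C in their sequence, 61.9% and 59.1%, against 40.9% to 50.0% for the other 5. Over the 771 tested miRNAs with a RefSeq sequence, GC content had a Spearman correlation of -0.17 with the unexposed gap, 0.31 with the exposed gap and 0.33 with the log2 fold change. These correlations are across miRNAs of the same 4 libraries, which are not independent. The median log2 fold change was -0.22 for the 147 miRNAs under 40% GC and 0.20 for the 161 at or above 60%. The part of GC content in the members' values was not tested.

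**Figure D4:**
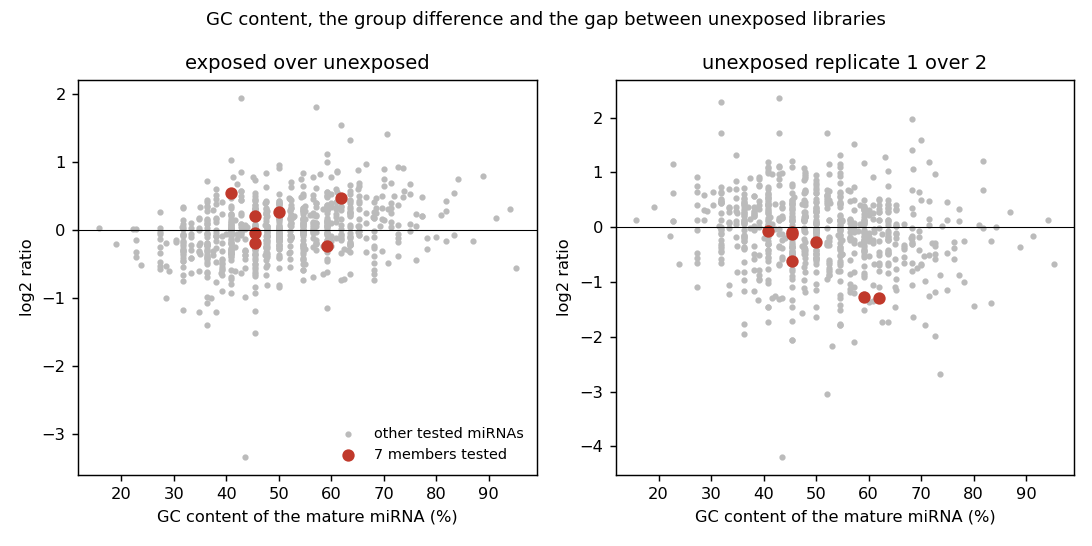
log2 ratio of exposed over unexposed cells (left) and of unexposed replicate 1 over replicate 2 (right) against the GC content of the mature miRNA, for 771 tested miRNAs in grey and the 7 members tested in red. In the right panel all 7 members lie below 0, and the members at 59.1% and 61.9% GC lie lowest, at -1.27 and -1.29.

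Other miRNAs encoded at or near the member hairpins were also counted. miR-219b-5p, from the strand opposite MIR219A2 and complementary to miR-219a-2-3p over 20 bases, had 40 and 36 counts under exposure and 13 and 13 without it, a log2 fold change of 0.54 (SE 0.35, adjusted p = 0.922 in edgeR). miR-219b-3p had 0, 1, 1 and 0 counts. Opposite MIR338, miR-3065-5p, which is complementary to miR-338-3p over all 22 bases, had 218 and 255 counts under exposure and 196 and 116 without it. In each library it was counted more often than miR-338-3p. Whether reads were assigned by strand is not given in the sources used here, so the values of these opposite-strand pairs are uncertain. Its log2 fold change was -0.42 (SE 0.35, adjusted p = 0.925 in edgeR). miR-1250-5p, whose hairpin also lies within AATK, less than 10 kb from MIR338, had 348 to 770 counts per library, more than 4 of the 8 members, and was at 30.3 and 31.6 CPM in exposed and 29.5 and 27.9 CPM in unexposed cells (log2 fold change 0.11), and miR-657 of the same host had 0 counts in every library.

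miRNAs alone do not identify cell types, and the members were set beside marker miRNAs of the cells that such cultures could hold. Of 5 further miRNAs tied to the oligodendrocyte lineage, all were tested and 0 had a P under 0.05 in edgeR, against 4.52% of all miRNAs tested. Their log2 fold changes were split, with 3 of 5 above 0 (median 0.26, adjusted p from 0.922 to 0.940 in edgeR). Their summed level was 334 to 363 CPM, of which miR-23a-3p, a miRNA of many tissues, made up 172 to 215 CPM, with 2480 to 4328 counts per library. Of 4 miRNAs tied to astrocytes 0 had a P under 0.05 in edgeR, and 1 had a log2 fold change above 0. That of miR-21-5p, the most abundant, was -0.47 (SE 0.24, adjusted p = 0.922 in edgeR). The 4 summed to 5136 to 8038 CPM, of which miR-21-5p made up 4386 to 7202 CPM.

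Among 13 miRNAs known from choroid plexus, ciliated cells or other epithelia, 9 were tested. Of these 1 had a P under 0.05 in edgeR, against 4.52% of all miRNAs tested. miR-200a-3p, an epithelial miRNA, had a log2 fold change of -0.70 (SE 0.30, adjusted p = 0.922 in edgeR), on 51 to 68 counts per library. The median log2 fold change of the 9 was -0.25. The miRNAs of ciliated epithelium differed in level. miR-34b-5p and miR-449b-5p had 0 counts in every library, miR-449a at most 2 and miR-449c-5p 8 to 18. miR-34c-5p had 182 to 368 counts (13.8 to 16.4 CPM), and miR-34b-3p, the other strand of the miR-34b hairpin, had 25 to 83 counts. miR-182-5p was the most abundant of the 13, with 2790 to 7768 counts.

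The neuronal list was in all libraries the largest, with a summed level of 227009 to 303343 CPM over 9 miRNAs, most of it miR-9-5p, against 1254 to 1560 CPM for the 8 members. In it 1 of 9 had a P under 0.05 in edgeR, against 4.52% of all miRNAs tested. This was miR-124-3p, which marks differentiated neurons. It was higher in exposed cells by 0.77 on the log2 scale (SE 0.30, adjusted p = 0.922 in edgeR). The list as a whole was near 0, with a median log2 fold change of 0.086 and 5 of 9 above 0, and its most abundant miRNA, miR-9-5p, had a log2 fold change of -0.23 (adjusted p = 0.968 in edgeR). The 8 pluripotency miRNAs summed to 2.7 to 4.2 CPM, 2 of them could be tested and 0 had a P under 0.05 in edgeR, and miR-302b-3p, the most abundant, had 21 to 31 counts per library. Of 6 miRNAs of microglia, blood and endothelium, miR-223-3p and miR-142-3p had 0 counts in every library, and the summed level of 801 to 1013 CPM was nearly all miR-126-3p, the only one tested (log2 fold change 0.19, adjusted p = 0.940 in edgeR).

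The miRNAs most like the leading member of each family were found by the root mean square difference of log2 CPM over the 4 libraries, each miRNA centred on its own mean, among 855 tested miRNAs. For miR-204-5p these were miR-4665-5p (0.036) and miR-676-3p (0.042), and for miR-338-5p they were miR-1269a (0.020) and miR-132-3p (0.024). Profiles this flat were common: 32 of the 855 lay within 0.1 of miR-204-5p and 50 within 0.1 of miR-338-5p. For miR-219a-1-3p, with its wide gap between the unexposed cultures, 0 lay within 0.1, and the nearest were miR-6716-3p (0.10) and miR-382-5p (0.12). The latter was at 30.7 and 38.6 CPM in exposed and 24.3 and 49.7 CPM in unexposed cells. With 4 libraries, such likeness describes these values only.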

How the data were processed

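Small RNA was measured in 4 libraries of hESC-derived cortical interneurons, 2 exposed to ethanol and 2 unexposed, grouped by the sample labels. Libraries were made with a NEBNext small RNA kit, and the authors ran CAP-miRseq on the reads to obtain the deposited table, which holds raw counts for each mature miRNA. Per the labels the genome build was hg19. The version of CAP-miRseq and the release of the miRNA annotation are not given in the sources used here. The table has 2656 miRNAs and 0 repeated names.

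The counts were tested with edgeR 4.0.16 in R 4.3.3: filterByExpr by group (minimum count 10, minimum total 15), TMM factors of 0.846 to 1.13, the quasi-likelihood test without covariates and Benjamini-Hochberg adjustment over 863 miRNAs. Standard errors come from the F statistic and 95% intervals from its degrees of freedom. Levels are CPM, counts scaled to 1000000 of the TMM-scaled library size. Exact permutation tests used log2(CPM + 0.5) or shares. Counting intervals are Wilson intervals, and reads carry no molecular identifiers. A count of 3 equals 0.121 to 0.248 CPM before TMM scaling. The test was repeated with DESeq2 1.42.0 and limma-voom (limma 3.58.1), with other scalings and filters, with a block for replicate number, and with every library left out in turn. The fit was tested on simulated data.

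Sequences and hairpin positions are RefSeq's (GRCh38.p14) and host genes are GENCODE 29's. They were matched by name, since the counts carry no coordinates, and 2367 miRNAs matched. The miRNAs named are the 8 members, the other products of their hairpins, those sharing a seed, the 2 nearest in profile to the leading member of each family, and, from fixed lists of cell type miRNAs, the most abundant and any with a P under 0.05. MIR3065, miR-34b-3p and the miRNAs within 10 kb, GC content, and further list members given by their counts were added after values were seen. The members and lists were chosen with earlier results of these data known.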

Additional observations from a re-analysis of the deposited data

How the results depend on the processing

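No member had a P under 0.05 with limma-voom, DESeq2, any other scaling or filter, or the replicate number as a block (0 members under each, in edgeR unless named). With 1 library left out in turn, the lone library of a group is assumed to vary like the other group's. Only log2 fold changes are therefore given for these fits. The log2 fold changes then ranged from -0.73 to 0.53 for miR-219a-1-3p, from -0.46 to 0.15 for miR-219a-2-3p, from -0.035 to 1.25 for miR-204-3p and from -0.21 to 0.11 for miR-204-5p. The value of miR-204-5p also turned positive, to 0.088, with library size only. For these the cause was not tested. miR-338-3p (0.44 to 0.70), miR-338-5p (0.095 to 0.34) and miR-211-5p (0.091 to 0.42) kept their sign under every alternative. With at least 1 count in any library, the only setting that tests miR-219a-5p, its log2 fold change was 0.49 (adjusted p = 0.932 in edgeR).

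The replicate numbers come from the labels, which do not say whether they pair the cultures. Replicate differences in the exposed and unexposed cells had a correlation of -0.19 across 863 miRNAs. This value cannot settle whether cultures were paired, since miRNAs of the same 4 libraries are not independent. With the replicate block the log2 fold change was -0.095 for miR-219a-1-3p and 0.56 for miR-204-3p, and no member's call changed. Over all miRNAs, 25 had a P under 0.05 with the block against 39 without it. The number was 94 when all 1825 miRNAs with at least 1 count in any library were tested instead of 863. Crossing the numbers, chosen after the data were seen, gave 59 and 0 members.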

Other observations

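Summed after TMM scaling, the 8 miRNAs reached 1266 and 1484 CPM under exposure against 1254 and 1560 CPM without it. By family, miR-204 and miR-211 summed to 905 ± 132 CPM in exposed and 925 ± 62.8 CPM in unexposed cells, miR-338 to 216 ± 0.743 CPM and 187 ± 8.65 CPM, and miR-219 to 254 ± 23.4 CPM and 295 ± 145 CPM (SD, n = 2 each). The miR-338 sum had the smallest SD in both groups. The SD was largest for miR-204 and miR-211 in exposed cells and for miR-219 in unexposed cells. These sums were not tested.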
